A study of Homo sapiens with 6 samples.

Results

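Polysome-associated RNA of SKBR3, a HER2-positive breast cancer line that the labels class as luminal, was compared with that of T47D, an estrogen receptor-positive line they class as luminal A. Genes were included where they stood at 1 RPKM or more (reads divided by transcript length in kilobases and scaled by the size of the library) in at least 2 of the 4 libraries of these lines, which left 10877 of the 30726 genes in the deposited table. The study exposed 3 established breast cancer cell lines to low oxygen and sequenced the RNA that travelled with polysomes, the mRNAs carrying several ribosomes, on sucrose gradients. Its stated purpose was to learn how hypoxia acts on translation. The 4 libraries compared here were SKBR3 at 21% oxygen, SKBR3 at 1% oxygen for 8 hours, T47D at 21% oxygen and T47D at 1% oxygen for 8 hours, each line being labelled wild type. Every cell was treated with cycloheximide before lysis. SUM1315, a triple-negative line grown at the same 2 oxygen levels, entered only some of the alternative fits.

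The comparison is between 2 cell lines, 1 for each subtype, and not between subtypes. SKBR3 was grown in McCoy's 5A medium with serum, and T47D in RPMI with serum and added insulin, so that line and medium cannot be told apart. Polysome RNA holds both the amount of an mRNA and its loading with ribosomes. Whole-cell RNA and DNA copy number were not analysed here, and a difference therefore cannot be assigned to either. With 1 library for each line and oxygen level, the spread behind each standard error is how far the line difference itself varied between the 2 oxygen levels, which covers no separate cultures of a line.

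As background, HER2, the product of ERBB2, is a receptor tyrosine kinase without a known ligand of its own that pairs with EGFR and with the HER3 receptor to drive MAPK and PI3K signalling. In HER2-positive breast cancer the gene is usually amplified together with its neighbours on the long arm of chromosome 17. The estrogen receptor, encoded by ESR1, is a ligand-dependent transcription factor that works with FOXA1 and GATA3 in luminal cells and switches on PGR, GREB1, TFF1 and many secreted proteins.

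The 250 bases before the RefSeq start of 4 genes are shown because each gene differed strongly between the lines and has a single such window in the RefSeq table (GRCh38.p14). STARD3, next to ERBB2, lies at chr17:39636894-39637143 (plus strand), and IGFBP4, further along the same arm but with the opposite pattern, at chr17:40443200-40443449 (plus strand). S100A14, with the largest difference of all, lies at chr1:153616326-153616575 (minus strand), and CXCL12, a chemokine gene known to respond to estrogen, at chr10:44385098-44385347 (minus strand).
STARD3: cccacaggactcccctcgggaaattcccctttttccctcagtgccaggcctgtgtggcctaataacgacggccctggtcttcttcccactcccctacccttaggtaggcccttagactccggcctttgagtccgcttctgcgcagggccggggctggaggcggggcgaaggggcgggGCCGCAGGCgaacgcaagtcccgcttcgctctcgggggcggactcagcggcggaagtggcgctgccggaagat
S100A14: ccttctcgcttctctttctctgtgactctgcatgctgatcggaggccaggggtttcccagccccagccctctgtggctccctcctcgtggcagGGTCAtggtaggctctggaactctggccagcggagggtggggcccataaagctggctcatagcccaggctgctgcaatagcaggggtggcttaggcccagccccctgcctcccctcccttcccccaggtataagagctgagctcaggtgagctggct
IGFBP4: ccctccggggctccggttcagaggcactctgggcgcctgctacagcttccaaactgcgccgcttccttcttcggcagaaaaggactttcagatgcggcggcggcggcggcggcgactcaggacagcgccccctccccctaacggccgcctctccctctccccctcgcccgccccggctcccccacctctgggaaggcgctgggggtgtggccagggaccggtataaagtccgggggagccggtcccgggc
CXCL12: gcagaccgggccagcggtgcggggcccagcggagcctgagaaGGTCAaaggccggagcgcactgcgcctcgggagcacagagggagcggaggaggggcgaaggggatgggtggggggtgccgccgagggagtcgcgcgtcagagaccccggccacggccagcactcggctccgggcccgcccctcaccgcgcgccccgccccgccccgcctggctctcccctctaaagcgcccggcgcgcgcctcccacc
Capitals mark matches, on either strand, to GGTCA, the half-site of an estrogen response element, shared by several nuclear receptors, or to GCCNNNGGC, the palindrome bound by AP-2 factors. No window held both motifs, so that no match overlapped another. STARD3 had 1 AP-2 match, S100A14 and CXCL12 had 1 half-site each, and these letters were not in the IGFBP4 window. Across all 35116 windows of this length, 32.6% held the half-site and 19.8% the AP-2 motif. Among windows of tested genes the half-site was in 29.1% of 994 for genes higher in SKBR3 by at least 1 on the log2 scale, in 29.9% of 1226 for genes as much higher in T47D, and in 30.1% of all 8310. The AP-2 motif was in 31.7%, 28.4% and 28.5% of the same windows. Both motifs were thus about as frequent before genes of either line as before tested genes in general.

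The subtype markers matched the labels in all 4 libraries. ERBB2 (chromosome 17, 39688094 to 39728658, GRCh38) stood at 615 RPKM at 21% oxygen and 743 at 1% in SKBR3, and at 8.12 and 8.76 in T47D. The lines did not overlap, which was true in this direction of 34.3% of all genes tested (and of 39.7% in the other), and SKBR3 was 75.7-fold higher at 21% oxygen and 84.9-fold higher at 1%. On the scale of log2(RPKM + 1), used for every difference below as SKBR3 minus T47D, the difference was 6.17 ± 0.25 (SE, 2 libraries per line, limma, adjusted p = 2.49e-26). ESR1 (chromosome 6, 151656672 to 152129619) was at 0.0370 and 0.0211 RPKM in SKBR3 and at 5.18 and 4.54 in T47D, a difference of -2.51 ± 0.16 (adjusted p = 1.15e-18). PGR (chromosome 11, 101029624 to 101129813), which encodes the progesterone receptor, was listed at 0 in both SKBR3 libraries and at 9.94 and 11.02 RPKM in T47D (difference -3.52 ± 0.18). ESR1 and PGR reached 1 RPKM in T47D only, so that the filter fixed their direction in the test. In each sentence of this kind the first of 2 values of a line is the library at 21% oxygen and the second the library at 1%.

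**Figure D1:**
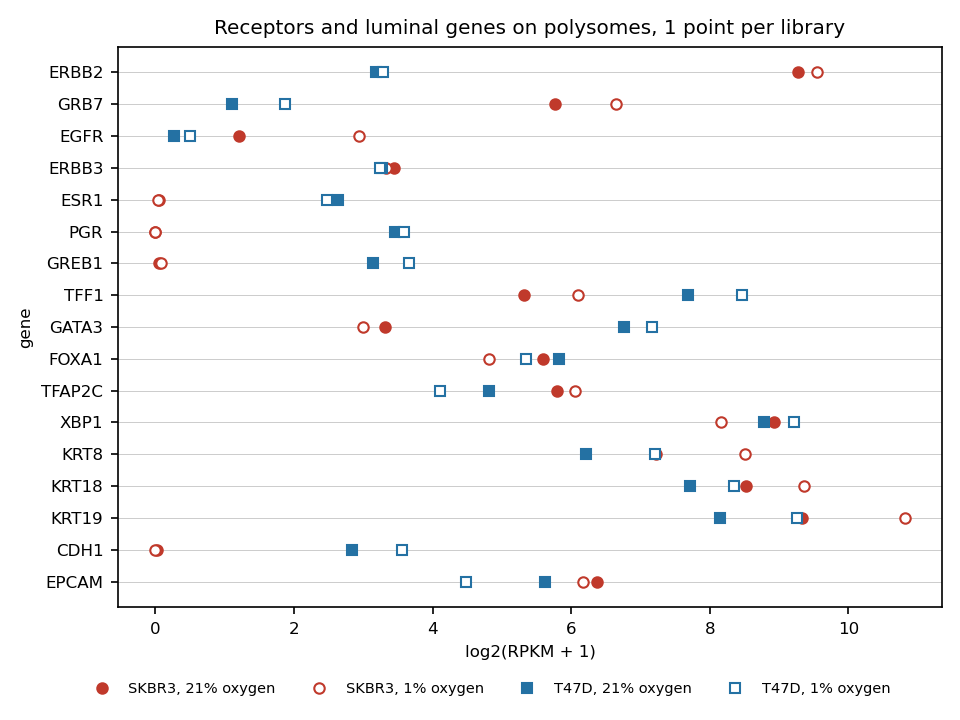
Level of 17 receptor and luminal genes as log2(RPKM + 1) on the horizontal axis, with 1 point for each of the 4 libraries (circles SKBR3, squares T47D, filled 21% oxygen, open 1% oxygen). ERBB2 and GRB7 lie far to the right in SKBR3, ESR1, PGR, GREB1 and CDH1 are near 0 there, and ERBB3 and FOXA1 hold similar places in both lines.

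Line was the larger divide among these libraries. The 2 libraries of a line correlated across genes at 0.976 (SKBR3) and 0.973 (T47D), and libraries of different lines at 0.780 to 0.809. Between 9675 and 10407 genes per library reached 1 RPKM, and the depth recovered from the values was 22.2 to 33.4 fragments per RPKM and kilobase. Luminal epithelial markers were present in both lines (all 10 tested), whereas 1 of 8 basal markers (ACTA2), 1 of 9 stromal markers (COL1A1) and no leukocyte or endothelial marker passed the filter. The summed RPKM of the leukocyte markers was 0.960 and 0.557 in SKBR3 and 0.752 and 1.86 in T47D, and that of the endothelial markers 0.692 and 1.04 against 0.103 and 0.143.

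Of the 10877 genes, 3024 (27.8%) were higher in SKBR3 and 3578 (32.9%) were higher in T47D at an adjusted p under 0.05, and 4275 did not pass. A difference of at least 1 on the log2 scale was seen in 1367 of the first (12.6% of genes tested) and 1770 of the second (16.3%). The median difference over all genes was -0.06, and scaling the libraries by their median ratio moved it to 0.00. At 5 or more on the log2 scale there were 28 genes higher in SKBR3 and 31 higher in T47D. The median prior degrees of freedom were 47.2 against 1 residual degree, so that an SE reflects genes of similar level far more than the gene's own 4 libraries. With limma and no filter on low values, 0 genes were called, although 9025 of 25701 had an unadjusted p under 0.05. With 1 library left out and SUM1315 in the fit to keep residual degrees of freedom, 2239 to 2429 and 2773 to 3052 genes were called.

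The line difference was mostly kept across oxygen levels. Its values at 21% and at 1% oxygen correlated at 0.935 across genes, which share their libraries and are not independent. In 2513 genes it was at least 1 at both levels with the same sign, and in 1 gene, the 5.8S ribosomal RNA copy RNA5-8SN2, at least 1 with opposite signs. It moved by 1 or more between the levels in 322 genes, and 24 of the genes called had differences of opposite sign.

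**Figure D2:**
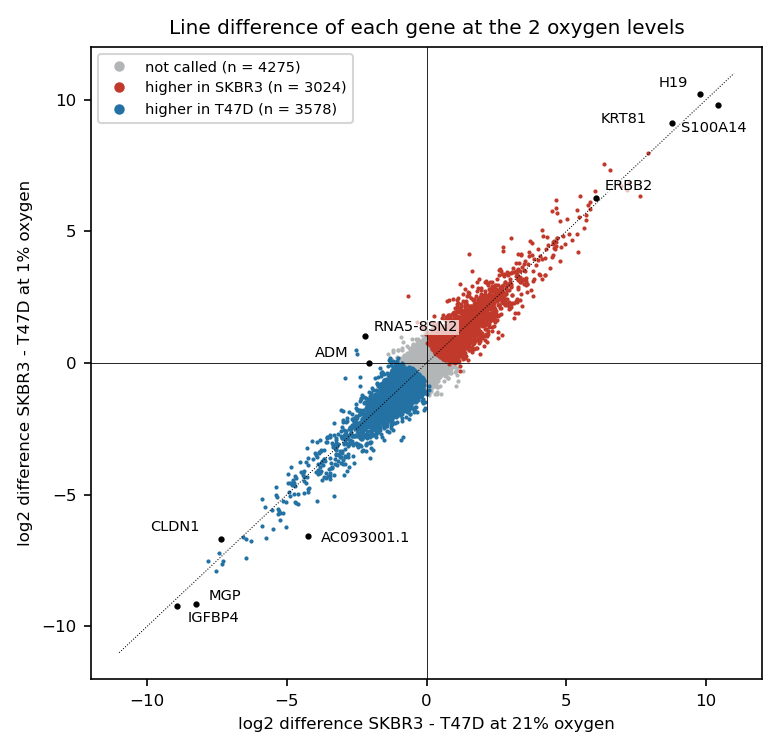
Difference of each of the 10877 genes, log2(RPKM + 1) of SKBR3 minus T47D, at 21% oxygen (horizontal) and at 1% oxygen (vertical). Red points were higher in SKBR3, blue points higher in T47D, grey points were not called, the dotted line marks equal differences, and black points are named genes. The cloud follows the dotted line, with RNA5-8SN2, ADM and AC093001.1 away from it.

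The largest difference was that of S100A14, a calcium-binding protein of epithelia, at 1921 and 2151 RPKM in SKBR3 and at 0.390 and 1.41 in T47D (10.12 ± 0.26). The imprinted noncoding RNA H19 reached 2126 and 5394 RPKM in SKBR3 against 1.39 and 3.49 in T47D (10.01 ± 0.25). KRT81, a hair-type keratin with close copies among its neighbours, was at 671 and 702 RPKM against 0.545 and 0.265 (8.94 ± 0.25). Each exceeded the difference of ERBB2, and the lines were apart in each, as they had to be for genes chosen by size. The other 7 of the 10 largest in SKBR3 were the dehydrogenase DHRS2 (7.94), SERHL2 (7.05), AL606500.1 (6.99), VSTM2L (6.95, listed at 0 in T47D), the growth factor BMP7 (6.95), the water and glycerol channel AQP3 (6.87) and the cancer-testis antigen CTAG2 (6.84), which has a near-identical copy.

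In T47D the largest difference was that of IGFBP4, which binds and restrains insulin-like growth factors, at 555 and 837 RPKM against 0.149 and 0.410 in SKBR3 (-9.07 ± 0.25). The matrix Gla protein MGP, an inhibitor of calcification, was at 581 and 837 RPKM against 0.901 and 0.476 (-8.70 ± 0.25). After them came the G protein subunit GNG11 (-7.72), the secreted glycoprotein STC2 (-7.66), the small GTPase RHOD (-7.48), the LIM protein CRIP1 (-7.41), the p53-induced oxidoreductase TP53I3 (-7.31), the tight junction protein CLDN1 (-7.02), the corticosteroid carrier SERPINA6 (-6.94) and the secretory-pathway protein AGR3 (-6.58).

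ERBB2 stood within a block of neighbours that were also higher in SKBR3. Of 55 genes in the table whose start lies within 1 Mb of that of ERBB2, 38 were tested, and 24 were higher in SKBR3, 10 higher in T47D and 4 not called, beside 27.8% and 32.9% of all genes. The stretch from CACNB1 (at -0.515 Mb from ERBB2) to CDC6 (at 0.600 Mb) held 24 tested genes. Of these 21 were higher in SKBR3, 1 was higher in T47D (RAPGEFL1, -1.25) and THRA and NR1D1 were not called, with a median difference of 2.71. These borders were set after the values were seen and carry no test. Over the alternatives that gave calls the median ran from 1.84 to 2.87 and the calls for SKBR3 from 19 to 22.

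The stretch made up 1.80% and 1.72% of all RPKM in SKBR3 and 0.251% and 0.212% in T47D. Much of that was RPL19, a protein of the large ribosomal subunit, at 3102 and 2725 RPKM in SKBR3 against 489 and 366 in T47D (2.78 ± 0.23). GRB7, an adaptor that binds activated HER2, was at 53.5 and 98.8 RPKM against 1.14 and 2.66 (4.72 ± 0.23). SKBR3 stood above T47D at both oxygen levels for both genes. Beside ERBB2, the steepest difference of the stretch was that of GSDMB, a gasdermin of the family of pore-forming proteins, at 58.8 and 56.2 RPKM against 0.147 and 0.312 (5.57 ± 0.22). The cholesterol transporter STARD3 (3.40), the lipid-remodelling protein PGAP3 (3.22), the migration enhancer MIEN1 (2.64), the transcriptional kinase CDK12 (2.86), the Mediator subunits MED1 (2.52) and MED24 (2.95), the proteasome subunit PSMD3 (2.41) and the replication licensing factor CDC6 (2.64) were also higher in SKBR3. ORMDL3, a regulator of sphingolipid synthesis within the stretch, differed less (1.05 ± 0.25). CACNB1 (1.00) was not called without the T47D library at 21% oxygen (0.73).

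Before CACNB1 the pattern turned, and past CDC6 it was mixed. Of the 8 tested genes before CACNB1, 7 were higher in T47D and none in SKBR3, with a median of -1.17. They included the ribosomal protein gene RPL23, at 74.9 and 32.7 RPKM in SKBR3 and 239 and 154 in T47D (-1.93 ± 0.26). Past CDC6 came 6 tested genes with a median of 0.51. The retinoic acid receptor gene RARA (1.14), the topoisomerase gene TOP2A (1.05) and the chromatin remodeller SMARCE1 (1.28) were higher in SKBR3, the connexin gene GJD3 (-2.38) and IGFBP4 were higher in T47D, and TNS4 was not called. IGFBP4, the gene with the largest difference in favour of T47D, thus starts 0.755 Mb from ERBB2.

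**Figure D3:**
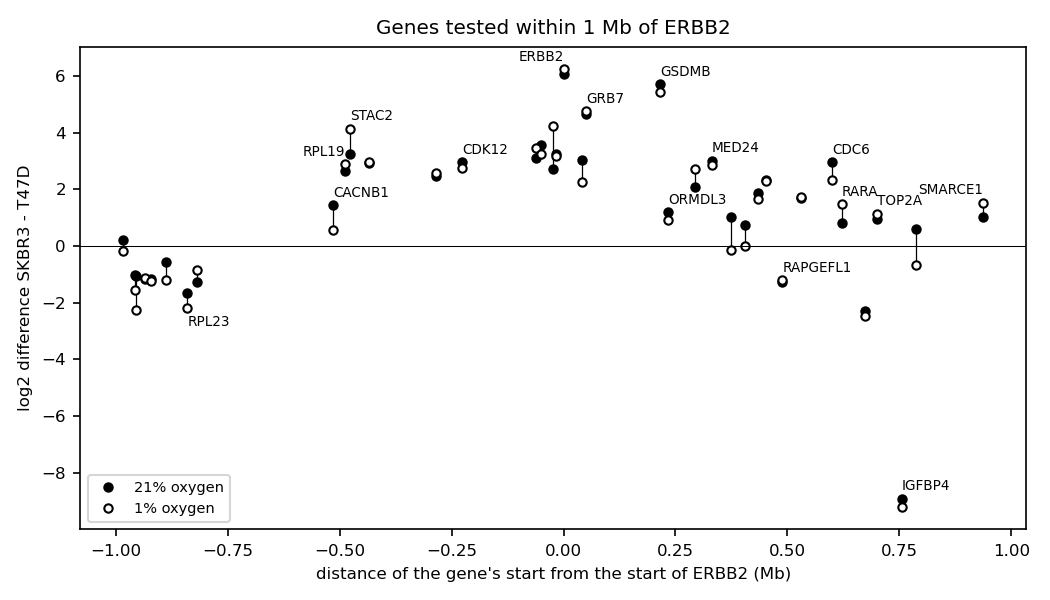
Difference in log2(RPKM + 1), SKBR3 minus T47D, of the 38 tested genes within 1 Mb of ERBB2, against the distance of each gene's start from that of ERBB2 (filled points 21% oxygen, open points 1% oxygen, a line joins the 2 values of a gene). Points from CACNB1 to CDC6 lie above 0 at both oxygen levels except THRA and RAPGEFL1, those before CACNB1 are mostly below 0, and IGFBP4 is near -9.

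The other HER receptors did not follow ERBB2 in size. EGFR was at 1.30 and 6.62 RPKM in SKBR3 and 0.205 and 0.417 in T47D (1.68 ± 0.19). It reached 1 RPKM in SKBR3 only, so that the filter fixed its direction. Its value at 1% oxygen in SKBR3 stood apart, and robust moderation ended the call (adjusted p = 0.11). ERBB3, the HER3 partner, was at 9.87 and 9.06 RPKM against 8.66 and 8.44 (0.13 ± 0.22, adjusted p = 0.626). ERBB4 stayed under 1 RPKM in all 4 libraries. Among 11 EGFR-family ligands, 3 were tested, and amphiregulin (AREG), an EGFR ligand known to respond to estrogen, was higher in T47D at 45.8 and 50.9 RPKM against 1.55 and 0.947 (-4.47 ± 0.23). TGFA was also higher there (-2.14 ± 0.16), and EPGN was higher in SKBR3 at low levels (0.52 ± 0.15). TGFA reached 1 RPKM in T47D only and EPGN in SKBR3 only, so that the filter fixed their direction.

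Of 17 feedback and output genes of MAPK signalling tested, 6 (35.3%) were higher in SKBR3 and 7 (41.2%) in T47D, beside 27.8% and 32.9% of all genes, with a median of -0.10 that took either sign under the alternatives. The receptor kinase gene EPHA2 (1.55 ± 0.17) was highest on the SKBR3 side, and PHLDA1 (-3.12 ± 0.18) and the feedback inhibitor SPRY2 (-1.35 ± 0.16) on the T47D side. PHLDA1, SPRY2, DUSP6, LRIG3 and FOSL1, all called for T47D, reached 1 RPKM there only. EPHA2 reached it in SKBR3 only. The filter thus fixed the direction of each of these genes. Calls for T47D fell to 4 without the SKBR3 library at 1% oxygen and to 3 without the T47D library at 21%. Of 18 PI3K pathway genes tested, 4 (22.2%) were higher in SKBR3 and 6 (33.3%) in T47D (median -0.26), shares near those of all genes, and the SKBR3 calls fell to 1 or 2 without any 1 library other than SKBR3 at 1% oxygen. The regulatory subunit PIK3R1 was higher in T47D (-1.44 ± 0.16), as was the phosphatase INPP4B (-1.004 ± 0.14), and PIK3R3 was higher in SKBR3 (1.23 ± 0.20). PIK3R1 and INPP4B reached 1 RPKM in T47D only, so that the filter fixed their direction. CCND1, which encodes cyclin D1 and is an output of both HER2 and estrogen signalling, was not called (-0.10 ± 0.25), and its sign turned without the SKBR3 library at 1% oxygen (0.0069) or the T47D library at 21% (0.16).

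Of 15 listed genes of the insulin-like growth factor axis, 8 were tested. Of these 6 (75%) were higher in T47D and 1 (12.5%) in SKBR3 (IGFBP3, 0.58), beside 32.9% and 27.8% of all genes. The median was -1.63, and -0.30 over 14 genes with no filter. IGFBP4, IGFBP6 and IGF1R reached 1 RPKM in T47D only, so that the filter fixed their direction. IGFBP2, another binding protein, was at 102 and 67.5 RPKM in T47D and 2.55 and 3.42 in SKBR3 (-4.40 ± 0.24). IGFBP6 differed by -2.74 ± 0.18. The receptor IGF1R was at 2.69 and 3.50 RPKM against 0.584 and 0.558 (-1.38 ± 0.17). The T47D medium contained insulin and that of SKBR3 is not described as doing so, and its part in these values was not tested. The IGFBP3 difference was of opposite sign at the 2 oxygen levels, -0.18 at 21% and 1.33 at 1%. Its call was lost with median ratio scaling, robust moderation, no mean-variance trend, oxygen level left out, or all 6 libraries in the fit. The difference was 0.09 without the SKBR3 library at 1% oxygen, 1.06 without the one at 21% and -0.07 without T47D at 1%.

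Estrogen-responsive genes were largely on the T47D side. Of 49 genes listed, 42 were tested. Of these 27 (64.3%) were higher in T47D, 6 (14.3%) higher in SKBR3 and 9 not called, beside 32.9% and 27.8% of all genes. The median was -1.63 beside -0.06 for all genes tested, and -1.06 over 48 genes with no filter. PGR, GREB1, CXCL12, OLFM1, SUSD3, HSPB8 and PDZK1 reached 1 RPKM in T47D only, so that the filter fixed their direction. The same held for IGFBP4, RERG, AGR3, STC2, ABAT, SCUBE2, MAPT and SERPINA1. Together they made up most of the T47D calls of this list. GREB1, a coactivator of the estrogen receptor, was at 7.81 and 11.6 RPKM in T47D and at 0.0361 and 0.0582 in SKBR3 (-3.33 ± 0.18). The trefoil peptide gene TFF1 was at 205 and 352 RPKM in T47D but also at 38.8 and 67.6 in SKBR3, a difference of -2.37 ± 0.25. Neither gene overlapped between lines, as for 39.7% of all genes tested in this direction. TFF1 was nevertheless on polysomes in both, 5.28-fold and 5.21-fold higher in T47D. CXCL12 was listed at 0 in both SKBR3 libraries and stood at 86.8 and 101 RPKM in T47D (-6.56 ± 0.22). OLFM1 (-6.20), SUSD3 (-5.89), the small heat shock protein HSPB8 (-5.52), PDZK1 (-4.30) and TFF3 (-4.24) were other members of the same group. Those higher in SKBR3 were the GTPase RAB31 (2.57 ± 0.24), the lysosomal protease cathepsin D, CTSD (1.84 ± 0.25), TBC1D9 (1.29), RARA (1.14), PREX1 (0.88) and CELSR2 (0.43). CTSD was at 325 and 481 RPKM in SKBR3 and 99.8 and 121 in T47D.

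Of 20 nuclear receptor genes tested, ESR1 and PGR included, 7 (35%) were higher in SKBR3 and 4 (20%) in T47D, beside 27.8% and 32.9% of all genes (median 0.28, of either sign under the alternatives). Besides ESR1 and PGR, the orphan receptors NR2F2 (-3.37 ± 0.20) and NR2F1 (-1.40 ± 0.14) were higher in T47D. The glucocorticoid receptor NR3C1 (1.20 ± 0.16) and the adipogenic receptor PPARG (1.09 ± 0.14) were higher in SKBR3, together with RARA. ESR1, PGR, NR2F2 and NR2F1, all the genes called for T47D, reached 1 RPKM there only. NR3C1 and PPARG reached it in SKBR3 only. The filter thus fixed the direction of each of these genes. Calls for SKBR3 numbered 4 without the T47D library at 21% oxygen.

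Of 17 tested genes known to respond to androgen or to mark apocrine cells, 7 (41.2%) were higher in each line, beside 27.8% and 32.9% of all genes. Prolactin-induced protein, PIP, was at 634 and 841 RPKM in T47D and 18.5 and 10.4 in SKBR3 (-5.62 ± 0.27), 34.3-fold and 81.0-fold higher. The prolactin receptor PRLR (-3.17 ± 0.24) and the carnitine acetyltransferase CRAT (-3.09 ± 0.24) were on the same side. SLC45A3 (3.26 ± 0.22) and NDRG1 (4.61 ± 0.23), which is also a hypoxia gene, were higher in SKBR3. Without the T47D library at 21% oxygen 4 were called for SKBR3.

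Of 20 luminal transcription factors, 7 (35%) were higher in each line, near the 27.8% and 32.9% of all genes, with a median of -0.31 that was -0.06 without SKBR3 at 1% oxygen and -0.13 without T47D at 1%. GATA3 was at 108 and 143 RPKM in T47D and 8.89 and 6.95 in SKBR3 (-3.82 ± 0.25), whereas FOXA1, at 55.5 and 39.5 against 47.2 and 27.2, overlapped between the lines (-0.37 ± 0.25, adjusted p = 0.192). ELF5, a factor of alveolar differentiation, followed GATA3 (-3.12 ± 0.22), as did GRHL2 (-1.42 ± 0.21). ELF3, a related epithelial factor, went the other way at 31.4 and 47.8 RPKM in SKBR3 and 1.97 and 4.44 in T47D (3.31 ± 0.23). KLF4 (1.75 ± 0.21) and ZNF217 (1.62 ± 0.24) were higher in SKBR3. TFAP2C, the AP-2 factor known to act on ERBB2, was at 54.5 and 65.7 RPKM in SKBR3 and 27.1 and 16.3 in T47D (1.47 ± 0.26), and TFAP2A, at 15.5 and 14.3 against 11.9 and 14.2, was not called (0.18 ± 0.23).

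**Figure D4:**
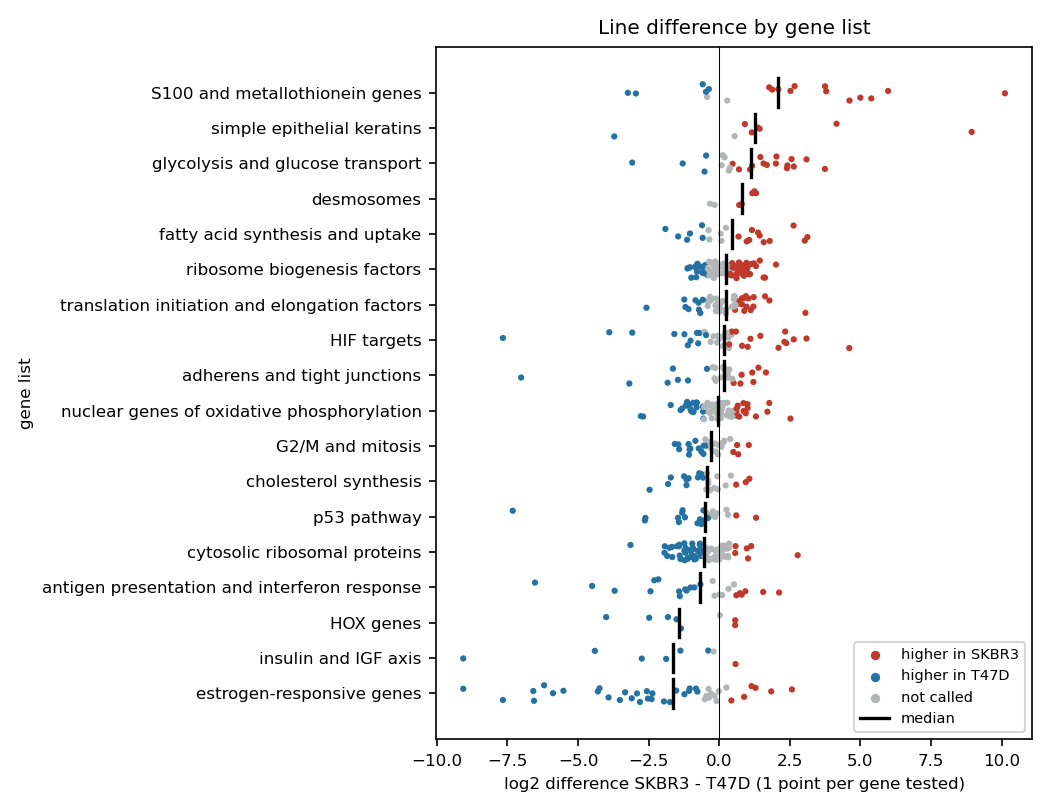
Difference in log2(RPKM + 1), SKBR3 minus T47D, of every tested gene in 18 gene lists (1 point per gene, red higher in SKBR3, blue higher in T47D, grey not called, black bar the median). Medians run from 2.09 for S100 and metallothionein genes to -1.63 for the insulin and estrogen lists, and most lists hold genes on both sides.

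Among adhesion genes, E-cadherin, CDH1, which joins epithelial cells at adherens junctions, was at 0.0147 RPKM and listed at 0 in SKBR3, and at 6.12 and 10.8 RPKM in T47D (-3.18 ± 0.18). CLDN1 was at 395 and 174 RPKM in T47D against 1.42 and 0.708, a ratio of 279 and 246. The lines did not overlap for either gene, as for 39.7% of all genes tested in this direction. CDH1 reached 1 RPKM in T47D only, so that the filter fixed its direction. Over the 27 adherens and tight junction genes tested, 7 (25.9%) were higher on each side, beside 27.8% and 32.9% of all genes, and the median was 0.15 (0.04 without T47D at 1% oxygen, 0.27 without T47D at 21%). In SKBR3 the catenin CTNNA1 (1.65 ± 0.23), the scaffold AFDN (1.39 ± 0.18) and the adhesion molecule EPCAM (1.21 ± 0.26) were higher, and in T47D CDH3 (-1.46 ± 0.15), the splicing factor ESRP1 of epithelial cells (-1.83 ± 0.21) and CLDN3 (-1.64 ± 0.25). AFDN reached 1 RPKM in SKBR3 only and CDH3 in T47D only, so that the filter fixed their direction. Calls for SKBR3 fell to 4 without either library at 1% oxygen, and EPCAM was not called without SKBR3 at 1% (1.02).

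All 5 desmosome genes that were called, of 7 tested (71.4%, beside 27.8% of all genes), were higher in SKBR3 (median 0.80). They were the cadherins DSC2 (1.30 ± 0.16) and DSG2 (0.80 ± 0.19), the plaque proteins PKP3 (1.25 ± 0.25) and JUP (1.17 ± 0.24), and PERP (0.71). The calls fell to 2 without SKBR3 at 1% oxygen and to 3 without T47D at 1%. JUP (1.00) was lost with the first of these libraries left out. PKP3 lost its call without either SKBR3 library (1.25 each) and without T47D at 1% (0.78).

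Of 8 genes listed as simple keratins, 6 (75%) were higher in SKBR3 and 1 (12.5%) in T47D, beside 27.8% and 32.9% of all genes. The median was 1.26. The 6 were KRT7, KRT8, KRT18, KRT19 and the hair-type keratins KRT81 and KRT86 (1.43). KRT7, found in many glandular epithelia, was at 125 and 298 RPKM in SKBR3 and 8.27 and 11.8 in T47D (4.15 ± 0.26). The pair KRT8 (1.15 ± 0.25) and KRT18 (0.91 ± 0.25) and KRT19 (1.37 ± 0.24) were higher in SKBR3 at the same oxygen level. At 148 and 362 RPKM in SKBR3 against 73.1 and 147 in T47D, KRT8 was higher at 1% oxygen in both lines and the ranges of the lines nearly met. KRT8, KRT18 and KRT19 were not called without SKBR3 at 1% oxygen (0.73, 0.60 and 0.85), where 3 keratins were left, or without T47D at 21% (0.95, 0.77 and 1.12). KRT23 was the exception, at 81.5 and 56.0 RPKM in T47D against 4.34 and 4.09 (-3.72 ± 0.24). KRT4, a keratin of stratified mucosa, was at 26.6 and 41.6 RPKM in SKBR3 and 0.0144 and 0.0156 in T47D (5.08 ± 0.21), while the basal keratins KRT5 and KRT14 stayed under 1 RPKM in all 4 libraries.

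Of 13 genes tied to a mesenchymal state, 6 (46.2%) were higher in SKBR3 and 5 (38.5%) in T47D, beside 27.8% and 32.9% of all genes, with a median (0.37) that took either sign under the alternatives. TWIST1, a repressor of E-cadherin, was at 2.89 and 3.85 RPKM in T47D and 0.270 and 0.254 in SKBR3 (-1.78 ± 0.16). The receptor TGFBR2 (1.17 ± 0.14) was higher in SKBR3. VIM, vimentin, at 4.96 and 5.14 RPKM against 8.61 and 9.17 (-0.71 ± 0.21), was called for T47D but with no 1 of the 4 libraries left out (values from -1.08 to -0.33). Calls for T47D fell to 3 in a fit of all 6 libraries, SUM1315 included, with none left out.

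S100 calcium-binding proteins and metallothioneins spanned a wide range. Of 19 tested, 12 (63.2%) were higher in SKBR3 and 5 (26.3%) in T47D, beside 27.8% and 32.9% of all genes (median 2.09). S100A9 was at 1500 and 1642 RPKM in SKBR3 and 25.4 and 22.5 in T47D (5.98 ± 0.25), and its partner S100A8 at 128 and 90.2 against 1.58 and 1.62 (5.39 ± 0.24). S100A10 ran the other way, at 1028 and 1416 RPKM in T47D and 140 and 172 in SKBR3 (-2.95 ± 0.24), and so did S100A1 (-3.24 ± 0.21). S100A7 and the zinc-binding MT1G were listed at 0 in both T47D libraries and reached 18.0 and 9.08, and 7.25 and 3.90 RPKM, in SKBR3. Calls for T47D fell to 2 or 3 without SKBR3 at either oxygen level or T47D at 1%, S100A11 (-0.58) being among those lost (-0.46, -0.71 and -0.37).

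Secreted proteins of luminal cells differed by gene. Of 28 listed, 14 were tested, and 5 (35.7%) were higher in SKBR3 and 7 (50%) in T47D, beside 27.8% and 32.9% of all genes. The median was -0.53, and 0.02 over 27 genes with no filter. SCGB2A2 and CEACAM6 reached 1 RPKM in SKBR3 only and AGR3 in T47D only, so that the filter fixed their direction. AGR2 (-2.53 ± 0.25) and the mucin MUC1 (-2.36 ± 0.22) were on the T47D side with TFF1, TFF3, PIP and AGR3. The protease inhibitor SLPI was at 80.2 and 66.1 RPKM in SKBR3 and 1.74 and 1.36 in T47D (4.86 ± 0.23). Mammaglobin, SCGB2A2 (4.59 ± 0.20), and CEACAM6 (2.62 ± 0.17) were also higher in SKBR3.

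Among tested genes, the medians of the 2 branches of lipid synthesis had opposite signs. Of 22 genes of fatty acid synthesis and uptake, 11 (50%) were higher in SKBR3 and 6 (27.3%) in T47D (median 0.46). The shares of all genes were 27.8% and 32.9%, and with no filter the median was 0.08 over 33 genes. FASN, fatty acid synthase, was at 77.1 and 173 RPKM in SKBR3 and 8.85 and 19.7 in T47D (3.03 ± 0.25), 8.71-fold and 8.76-fold higher. THRSP, an activator of lipogenesis, differed by 3.12 ± 0.21, and ME1, which supplies NADPH, by 2.63 ± 0.17. The transcription factor SREBF1 (1.57 ± 0.23) was higher in SKBR3 as well. In T47D the desaturases FADS1 (-1.91 ± 0.15) and FADS2 (-1.45 ± 0.15) and the lipid droplet protein PLIN2 (-1.14 ± 0.17) were higher.

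Of 24 genes of cholesterol synthesis, 11 (45.8%) were higher in T47D and 3 (12.5%) in SKBR3, beside 32.9% and 27.8% of all genes. The median was -0.45, and -0.42 without T47D at 21% oxygen. With oxygen level left out as a replicate block, 9 were called for T47D. TM7SF2, a sterol reductase, was at 91.4 and 99.7 RPKM in T47D against 18.97 and 14.2 (-2.47 ± 0.25), and the mevalonate enzymes PMVK (-1.81 ± 0.26) and MVD (-1.71 ± 0.22) were on the same side. CYP51A1 (1.07 ± 0.23) and SQLE (0.94 ± 0.21), the squalene epoxidase, were higher in SKBR3. Whether the lists differ from each other was not tested. With oxygen level left out as a replicate block, the calls for SKBR3 numbered 2 of the MAPK and 2 of the PI3K genes, 4 of the nuclear receptors, 3 of the simple keratins, 4 of the junction genes, 2 of the desmosome genes, 9 of the glycolysis genes, 7 of the hypoxia targets, 21 of the ribosome biogenesis genes, 10 of the translation factors, 6 of the G1/S genes, 1 of the p53 genes and 9 of the oxidative phosphorylation genes. In the same fit the calls for T47D numbered 2 of the S100 and metallothionein genes, 5 of the hypoxia targets, 7 of the ribosome biogenesis genes, 4 of the translation factors and 7 of the G2 and mitosis genes.

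Glycolysis and glucose transport stood higher in SKBR3 at both oxygen levels. Of 24 genes tested, 15 (62.5%) were higher there, 4 (16.7%) higher in T47D and 5 not called, beside 27.8% and 32.9% of all genes. The median was 1.13, and 0.70 over 29 genes with no filter. SLC2A1, the GLUT1 glucose transporter, was at 12.7 and 75.9 RPKM in SKBR3 and at 0.740 and 7.38 in T47D (3.09 ± 0.22). Its level in T47D under hypoxia was thus below that of SKBR3 at 21% oxygen, although both lines had more at 1%. LDHB was at 43.6 and 71.7 RPKM against 3.28 and 3.23 (3.74 ± 0.24), and the lactate exporter SLC16A3 at 29.8 and 90.4 against 3.23 and 16.1 (2.64 ± 0.24). GAPDH, often used as a reference gene, was 5.46-fold higher in SKBR3 at 21% oxygen and 6.43-fold higher at 1% (2.56 ± 0.24). Hexokinases HK2 (2.41 ± 0.21) and HK1 (2.03 ± 0.24) and the isomerase GPI (2.40 ± 0.23) were higher as well. PFKFB3, which makes the activator of phosphofructokinase, was the clearest exception at 20.2 and 68.4 RPKM in T47D against 1.84 and 6.23 (-3.08 ± 0.23), followed by PGAM1 (-1.29 ± 0.25). Without SKBR3 at 1% oxygen, T47D at 1% or T47D at 21%, 2 genes were called for T47D.

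**Figure D5:**
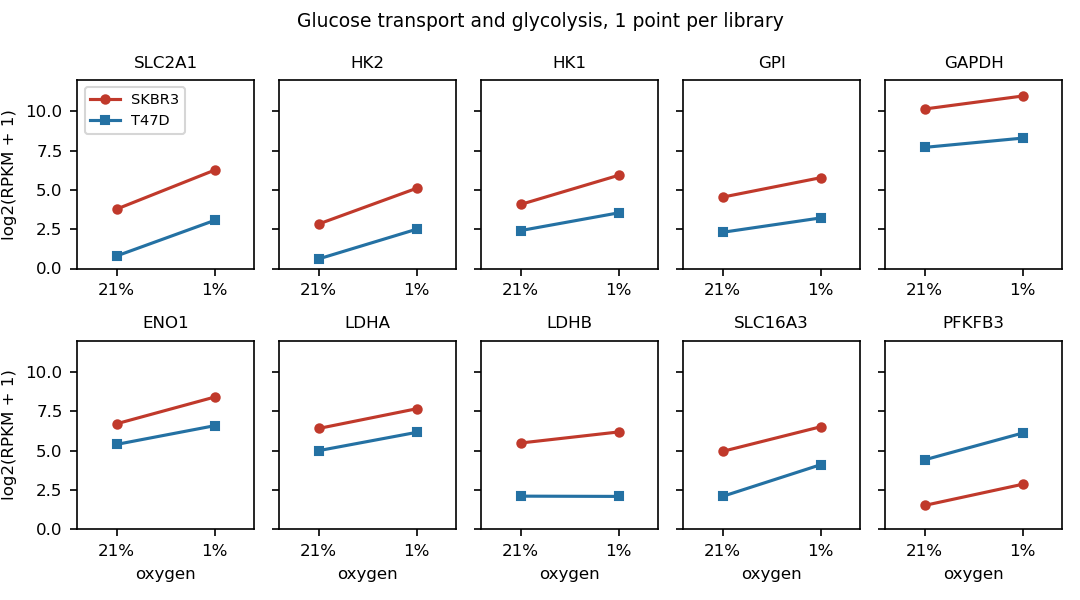
Level of 10 genes of glucose transport and glycolysis as log2(RPKM + 1), vertical axis, at 21% and 1% oxygen, with 1 point per library (circles SKBR3, squares T47D). In 9 panels SKBR3 lies above T47D at both oxygen levels, in PFKFB3 below it, and LDHB of T47D is level between 3.28 and 3.23 RPKM.

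Of 38 targets of the hypoxia-inducible factors tested, 14 (36.8%) were higher in SKBR3, 11 (28.9%) in T47D and 13 were not called, beside 27.8% and 32.9% of all genes, with a median of 0.17 that took either sign under the alternatives. HIF1A itself was at 3.09 and 3.26 RPKM in SKBR3 and 2.61 and 2.74 in T47D (0.18 ± 0.19, adjusted p = 0.401). EPAS1, which encodes HIF-2 alpha, was at 13.1 and 12.1 RPKM in SKBR3 and 1.98 and 3.13 in T47D (1.96 ± 0.21). The factor-inhibiting hydroxylase HIF1AN (-1.48 ± 0.22) and the prolyl hydroxylase EGLN2 (-1.40 ± 0.25) were higher in T47D.

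Target genes that reached like levels under hypoxia included ANGPTL4, an inhibitor of lipoprotein lipase, at 26.2 RPKM in SKBR3 and 20.3 in T47D, and the lipid droplet protein HILPDA at 398 and 316. Others kept a gap. NDRG1 was at 30.7 and 126 RPKM in SKBR3 and 0.145 and 4.95 in T47D, and the mTORC1 inhibitor DDIT4 at 76.3 and 853 against 14.3 and 159 (2.38 ± 0.25). AK4, a mitochondrial adenylate kinase, went the other way at 12.001 and 34.8 RPKM in T47D against 0.0671 and 0.974 (-3.89 ± 0.21), as did STC2. CA9, the carbonic anhydrase used as a hypoxia marker, passed 1 RPKM in 1 library only, SKBR3 at 1% oxygen (9.40 RPKM), and was not tested. In the fit of all 6 libraries, with none left out, calls for T47D numbered 8 and those for SKBR3 11.

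Ribosomal protein mRNAs were mostly higher in T47D or not called. Of 79 tested, 39 (49.4%) were higher in T47D, 6 (7.59%) in SKBR3 and 34 did not pass, beside 32.9% and 27.8% of all genes. The median was -0.52. The summed RPKM of the 79 was 27387 and 17836 in SKBR3 and 33615 and 24039 in T47D. The sum was thus lower at 1% oxygen in both lines and lower in SKBR3 at each level. RPS28 was at 136 and 139 RPKM in T47D and 13.4 and 16.04 in SKBR3 (-3.14 ± 0.25), and RPL35A differed by -1.94 ± 0.25. Besides RPL19, genes on the SKBR3 side included RPS4X (1.13), RPSA (1.02) and RPL7 (0.98), and 3 of the 6 calls were left without SKBR3 at 1% oxygen. With oxygen level left out as a replicate block the T47D calls were 20. These genes have many processed copies in the genome, and the sources used here do not say how reads shared with them were counted.

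Genes that assemble ribosomes leaned the other way (median 0.23). Of 96 tested, 37 (38.5%) were higher in SKBR3 and 17 (17.7%) in T47D, beside 27.8% and 32.9% of all genes. NVL, an ATPase of large-subunit assembly, was at 11.96 and 11.8 RPKM in SKBR3 and 1.93 and 2.49 in T47D (2.01 ± 0.21), and the helicase DDX21 differed by 1.62 ± 0.24. UBTF, the RNA polymerase I activator, was higher in T47D (-1.03 ± 0.20), with TSR3 (-1.09 ± 0.25) and RRP36 (-1.13 ± 0.25). The SKBR3 calls were 20 without SKBR3 at 1% oxygen and 22 without T47D at 1%, and the T47D calls 10 and 11 without T47D at 1% and at 21%. Among 53 translation factors, 16 (30.2%) were higher in SKBR3, near the 27.8% of all genes, and 9 (17.0%) in T47D, beside 32.9%. The median was 0.22. EIF4EBP3, a repressor of cap-dependent initiation, was at 6.43 and 12.3 RPKM in SKBR3 and 0.0803 and 0.327 in T47D (3.05 ± 0.18). The eIF3 subunits EIF3A (1.78 ± 0.23) and EIF3H (1.62 ± 0.25) were higher in SKBR3 and EIF3E (-1.20 ± 0.17) higher in T47D, so that subunits of 1 complex differed in opposite directions. The elongation factor EEF1A2 was higher in T47D (-2.58 ± 0.24).

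Of 26 p53 pathway genes, 14 (53.8%) were higher in T47D and 2 (7.69%) in SKBR3, beside 32.9% and 27.8% of all genes. The median was -0.51, and -0.37 without SKBR3 at 1% oxygen. With oxygen level left out as a replicate block, 10 were called for T47D. TP53I3 was at 481 and 370 RPKM in T47D and 1.82 and 1.502 in SKBR3, and the death receptor gene FAS at 7.38 and 3.78 against 0.0483 and 0.0195 (-2.61 ± 0.17). CDKN1A, which encodes the cell cycle inhibitor p21, was at 47 and 75.9 RPKM in T47D and 9.79 and 7.88 in SKBR3 (-2.63 ± 0.25). GADD45A was higher in SKBR3 (1.30 ± 0.23).

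Of 31 genes of G2 and mitosis, 13 (41.9%) were higher in T47D and 4 (12.9%) in SKBR3, beside 32.9% and 27.8% of all genes. The median was -0.31. CCNB1, cyclin B1, was at 43.4 and 24.1 RPKM in T47D and 10.1 and 10.3 in SKBR3 (-1.57 ± 0.24), with the securin PTTG1 (-1.45 ± 0.25) and CCNB2 (-1.42 ± 0.24) on the same side. TOP2A and MKI67 (0.63 ± 0.18) were higher in SKBR3, MKI67 not being called without SKBR3 at 21% oxygen (0.46), T47D at 1% (0.67) or T47D at 21% (0.60). The T47D calls were 7 or 8 without either SKBR3 library or T47D at 21%, and the SKBR3 calls 1 or 2 without either SKBR3 library or T47D at 1%. Of 41 genes of G1/S and replication, 10 (24.4%) were higher in SKBR3 and 14 (34.1%) in T47D, near the shares of all genes (median 0.11, and 0.03 without either SKBR3 library), the SKBR3 calls numbering 6 without SKBR3 at 21%. The replication factor GINS2 was higher in T47D (-2.86 ± 0.25), and CDC6, within the ERBB2 stretch, had the largest difference for SKBR3.

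Antigen presentation and interferon-response genes were higher in T47D in 13 of 25 cases (52%) and in SKBR3 in 6 (24%). The shares of all genes were 32.9% and 27.8%. The median was -0.67, and -0.14 over 46 genes with no filter. BST2, an interferon-induced membrane protein, was at 703 and 777 RPKM in T47D and 8.10 and 6.11 in SKBR3 (-6.52 ± 0.26). HLA-B was at 46.2 and 50.8 RPKM in T47D and 0.813 and 1.63 in SKBR3 (-4.50 ± 0.22), and HLA-C differed by -3.70 ± 0.22. B2M, the common light chain, stood at 140 and 139 RPKM against 144 and 186 (-0.23 ± 0.25, adjusted p = 0.443). The HLA heavy chains resemble each other and vary between people, so that their values depend on how reads were assigned. ISG20 (2.12 ± 0.19), IFITM3 (1.56 ± 0.25) and IRF7 (0.93 ± 0.17) were higher in SKBR3.

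Of 73 nuclear genes of oxidative phosphorylation, 14 (19.2%) were higher in SKBR3, 19 (26.0%) in T47D and 40 were not called, beside 27.8% and 32.9% of all genes. The median of -0.04 took either sign (0.07 without T47D at 1% oxygen, 0.04 with median ratio scaling, -0.20 without T47D at 21%). Single subunits still differed widely. NDUFB9 was at 209 and 192 RPKM in SKBR3 and 30.9 and 37.4 in T47D (2.52 ± 0.25), and UQCRB at 44.3 and 47.4 in T47D and 6.90 and 4.91 in SKBR3 (-2.78 ± 0.24). ATP5MC2 was also higher in T47D (-2.70 ± 0.25) and NDUFA5 in SKBR3 (1.77 ± 0.24). The SKBR3 calls fell to 8 without SKBR3 at 1% oxygen or T47D at 21%, the latter with 20 for T47D.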

How the data were processed

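Polysome-associated RNA of SKBR3 and T47D cells was sequenced after 8 hours at 1% oxygen and at 21% oxygen, 1 library each. Per the labels' protocols, RNA was isolated from sucrose gradients loaded with equal protein and the NEBNext Ultra RNA kit served for library construction. Tools listed, per the submitters' processing notes, are Partek, SAMtools, HISAT2 and Trimmomatic, with hg38 and GRCh38 as builds. Annotation, strand setting and order of steps were not given in the sources used here, and reads of overlapping or antisense genes may therefore be mixed. The deposited values were read as RPKM made by the authors, since no header names the unit. In 51.4% to 52.8% of 2739 to 3009 genes with a single GENCODE transcript, value times length fell within 0.02 of a whole multiple of a step, and the size of that step gave the depths reported, which cover counting error only.

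Values were used as deposited. Genes that reached 1 RPKM in 2 or more of the 4 libraries entered the test, by limma (version 3.58.1, under R 4.3.3) on log2(RPKM + 1), with line and oxygen level as terms, a mean-variance trend, no robust option, a two-sided test and Benjamini-Hochberg adjusted p under 0.05 over all genes tested. The scale understates differences of low genes. A gene under 1 RPKM in both libraries of 1 line could pass only through the other line, which fixed its direction. This holds for every such gene named, also where it is not repeated. Oxygen level pairs the libraries of the lines by the labels: the deviations of same-level libraries from their line means correlated at 0.476 across genes. Leaving out 1 library takes in SUM1315 and assumes that a lone library varies like the others. With SUM1315 and all 6 libraries the median prior degrees of freedom were 6.85, against 47.2 in the main fit. How much of a lost call came from the library left out was not tested. Calls per list and gene were repeated under each alternative.

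Genes were named as the subtype markers and a panel, the 10 largest differences of each direction with the same sign at both oxygen levels, the 3 largest of each direction in a list, the genes within 1 Mb of ERBB2 and the 5 of each direction whose difference moved most with oxygen. Further genes, the borders of the ERBB2 stretch, the motifs and the running medians were chosen after values were seen. The genes and lists were chosen with earlier results of these data known. Lists are described by counts and medians, and no list was tested. Positions come from RefSeq, matched by symbol for 10234 of the genes tested, and promoter windows for 8310. Some genes are not reported here.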

Additional observations from a re-analysis of the deposited data

Results flagged for a closer look

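In 6 genes the ratio of 1% over 21% oxygen had opposite signs in the 2 lines, on the scale of log2(RPKM + 1). They are among the 10 genes, at a mean of 5 RPKM or more, whose line difference moved most between oxygen levels. With 1 library per line and level this difference was not tested. AC093001.1 had a log2 ratio of -1.48 in SKBR3 and 0.86 in T47D. The potassium channel subunit gene KCNS3 had -0.25 and 1.76, and the imprinted gene PHLDA2 -1.13 and 0.67. For CPE, the prohormone-processing carboxypeptidase, the ratios were 0.53 in SKBR3 and -1.38 in T47D.

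The 5.8S ribosomal RNA copies RNA5-8SN2 (2.29 in SKBR3 and -0.94 in T47D) and RNA5-8SN3 (2.31 and -0.54) were the other 2. RNA5-8SN2 stood at 5.68 and 31.7 RPKM in SKBR3 at 21% and 1% oxygen and at 29.4 and 14.9 in T47D. These copies are near-identical and short, so that reads cannot be assigned to 1 of them.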

How the results depend on the processing

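Scaling, pseudocounts of 0.1 and 5, moderation settings and a fit over all 6 libraries gave 2827 to 3147 genes higher in SKBR3 and 3184 to 3630 genes higher in T47D. With limma and no filter on low values 0 and 0 genes were called (9025 of 25701 at an unadjusted p under 0.05). At a mean of 5 RPKM or more, with 5549 genes tested, 1491 and 1756 were called. With no replicate block, that is, oxygen level left out of the paired fit, 2098 and 2629 were called. Without 1 library the counts were 2239 to 2429 and 2773 to 3052. Of 218 named genes tested, 211 had the same sign in every setting. Of their 204 calls, 20 were lost without the block and all 204 with no filter. Signs turned for 7. Without 1 library the log2 difference SKBR3 minus T47D ran as follows: CCND1 -0.35 to 0.16, DSP -0.83 to 0.17, HOXC13 -0.47 to 0.52, IGFBP3 -0.072 to 1.23, MLLT6 -0.22 to 0.26, THRA -0.028 to 0.91 and TNS4 -0.58 to 0.52. With median ratio scaling it was 0.020 for TNS4. The cause was not tested, beyond the smaller number of genes tested with the stricter filter. Depth limits genes below about 0.0898 to 0.135 RPKM, 3 reads on 1 kb.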

Other observations

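The line difference varied along the genome outside the ERBB2 stretch. A running median over 15 neighbouring tested genes, chosen after the data were seen and not tested, passed 1.5 in favour of SKBR3 from COLEC10 to FAM91A1 on chromosome 8, where 19 of 19 genes were higher in SKBR3, DEPTOR and ATAD2 among them. It did so from REXO1L11P to NBN on the same chromosome (7 of 8) and from IVL to S100A16 on chromosome 1 (9 of 10). In favour of T47D it passed the same size from NDUFAF6 to UQCRB on chromosome 8 (4 of 4), from TRIAP1 to COQ5 on chromosome 12 (5 of 6) and over the GAGE genes of the X chromosome (9 of 10), whose copies are near-identical. By chromosome, 45.7% of tested genes on chromosome 2 were higher in SKBR3 and 13.4% in T47D. On chromosome 7 the shares were 45.3% and 18.99%, and on chromosome 13 they were 43.4% and 13.8%. The balance was opposite on chromosome 9 (15.8% and 47.6%), chromosome 12 (20.7% and 45.2%) and chromosome 3 (16.2% and 39.1%). DNA copy number was not analysed here.

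Homeobox and cancer-testis genes separated the lines gene by gene. Of 39 HOX genes listed, 8 were tested. Of these 5 (62.5%) were higher in T47D and 2 (25%) in SKBR3, beside 32.9% and 27.8% of all genes. The median was -1.43, and -0.06 over 36 genes with no filter. Calls for SKBR3 were 0 with oxygen level left out as a block. HOXB2 reached 1 RPKM in T47D only, so that the filter fixed its direction. HOXB2 was at 13.4 and 17.7 RPKM in T47D and 0.0128 and 0.0310 in SKBR3 (-4.00 ± 0.19), and HOXC10 at 90.3 and 95.2 against 20.1 and 12.4 (-2.48 ± 0.25). HOXC6 (0.56) and HOXC9 (0.57) were not called without either library at 21% oxygen (0.39 and 0.28 without SKBR3, 0.36 and 0.52 without T47D), and HOXC9 not without T47D at 1% (0.61). Of 13 cancer-testis genes, 6 (46.2%) were higher on each side, beside 27.8% and 32.9% of all genes. MAGEA3 was at 48.0 and 46.2 RPKM in SKBR3 and 1.73 and 0.682 in T47D (4.49 ± 0.23), and MAGEA6 differed by 4.17 ± 0.22. CT45A1 was listed at 0 in SKBR3 and stood at 11.7 and 8.91 RPKM in T47D. Most of these genes have near-identical copies, and the value of a single member is uncertain.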
